A study of Mus musculus with 4 samples.

Results

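Conventional CD4 T cells are the helper lineage of T lymphocytes without regulatory T cells. They were chosen in single-cell libraries of aged mouse kidney by raw counts of unique molecular identifiers (UMIs, each standing for 1 captured transcript) per cell barcode. A barcode needed at least 2 UMIs over Cd3d, Cd3e and Cd3g and at least 1 UMI of Cd4. It was left out with any UMI of Cd8a, Cd8b1, Foxp3 or Cd79a, with more than 2 UMIs over Mki67 and Top2a, more than 9 over C1qa, C1qb and C1qc, or more than 3 over Lrp2 and Slc34a1. This gave 947 barcodes of the 50605 kept, out of 76278 deposited. BPTES library 1 held 210 of them, BPTES library 2 held 246, DMSO library 1 held 259 and DMSO library 2 held 232.

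All mice were male C57BL/6 animals of 19 months, given BPTES or DMSO for 1 month. BPTES is a small-molecule inhibitor of glutamine metabolism, and DMSO is its solvent. Kidney cells were sorted by CD45, the antigen of leukocytes, and 20000 negative and 9000 positive cells of a tissue were pooled for a library, so the leukocyte share of a library was fixed by the pooling. Each group had 2 libraries, and the labels do not say from how many animals a library came, so p-values measure the spread between these libraries only.

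CD4 T cells recognise peptides on MHC class II molecules and help other immune cells through CD40 ligand and secreted cytokines. Naive cells circulate through lymphoid organs by means of receptors such as Ccr7, while memory cells that have entered a tissue carry homing and retention molecules such as Cxcr6. Helper subsets are told apart by transcription factors and cytokines, with Tbx21 and Ifng marking type 1, Gata3 and Il4 type 2, and Il17a type 17 cells.

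Markers that the rule had not used set the gated cells apart from B cells, and the CD40 ligand gene also set them apart from CD8 T cells. B cells were barcodes with at least 2 Cd79a UMIs and no UMI of Cd3d, Cd3e or Cd3g. Their low shares of other T cell genes were partly fixed by that choice. The shares given here were not set against those of regulatory or natural killer T cells. After each cell was thinned to 7500 UMIs, Cd40lg, the gene of CD40 ligand, was detected in 79.7% and 74.5% of CD4 cells with BPTES and in 72.2% and 78.0% with DMSO. In CD8 T cells, chosen by the mirrored rule (1398 barcodes), the share was 6.77%, 7.28%, 21.6% and 11.5% in the same order. In B cells, which should lack the transcript, it was at most 0.495%. Trac, the T cell receptor alpha constant gene, was found in 93.9% to 98.0% of the CD4 cells and Cd28, a costimulatory receptor, in 88.3% to 94.5%, whereas in B cells both were at or under 7.92%. Median depth was 10525 to 11445 UMIs per CD4 cell and 15344 to 20549 per B cell before thinning. Thinning left out 29 to 42 CD4 cells per library, and the unthinned share of Cd40lg was 80.3% to 83.7%.

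The gate had soft edges. Exactly 1 Cd4 UMI admitted 191 of the 947 cells. Just outside it, 40 barcodes failed only because they had 1 Cd3 UMI, 50 only through 1 Cd8 UMI and 17 only through 1 Foxp3 UMI, and 1025 T cells had no UMI of Cd4, Cd8 or Foxp3. Genes associated with regulatory T cells persisted inside it, with Ikzf2 in 25.7% to 35% and Il2ra in 10.4% to 19.5% of thinned cells, against 98.0% to 100% and 44.4% to 67.3% of Foxp3-positive cells. In thinned B cells the shares were 0.990% to 3.92% and 0.490% to 3.79%. Zbtb16, the transcription factor of natural killer T cells, was found in 11.9% and 8.82% of the thinned BPTES cells and in 7.39% and 3.50% of the DMSO cells. In B cells the share was 8.31%, 6.44%, 5.30% and 7.35% in the same order, so only BPTES library 1 lay well above the 5.30% to 8.31% of the B cells, BPTES library 2 was just above it, DMSO library 1 within it and DMSO library 2 below it. Of the libraries' gated barcodes, 1 sequence occurred in both BPTES libraries and none was shared by any other pair. Doublets were limited only by the gate and by the alternatives given with the results.

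The number of conventional CD4 T cells relative to other T cells did not separate the groups. Their share of T cells was 23.2% and 24.1% with BPTES, against 24.3% and 22.0% with DMSO. The means were 23.6% ± 0.665 and 23.2% ± 1.58 (SD, n = 2 each), the groups overlapped and the exact two-sided permutation test gave p = 1.0. With 2 libraries against 2 this test cannot go below 0.33. The ratio of CD4 to CD8 cells was 0.686 and 0.691 with BPTES and 0.744 and 0.598 with DMSO, so the DMSO libraries lay on either side of the BPTES libraries.

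Foxp3-positive cells were fewer per conventional CD4 cell in both BPTES libraries, with 0.133 and 0.0894 against 0.147 and 0.246 (exact permutation p = 0.33, the smallest possible). Counts were small, 28 and 22 cells against 38 and 57. T cells in which none of Cd4, Cd8 and Foxp3 was detected made up 30.9% and 31.1% with BPTES and 25.2% and 15% with DMSO. The groups did not overlap in either measure, and DMSO library 2 lay farthest from the others in both. Fewer cells of a type and fewer detected transcripts per cell cannot be told apart in a share that is set by single UMIs.

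**Figure D1:**
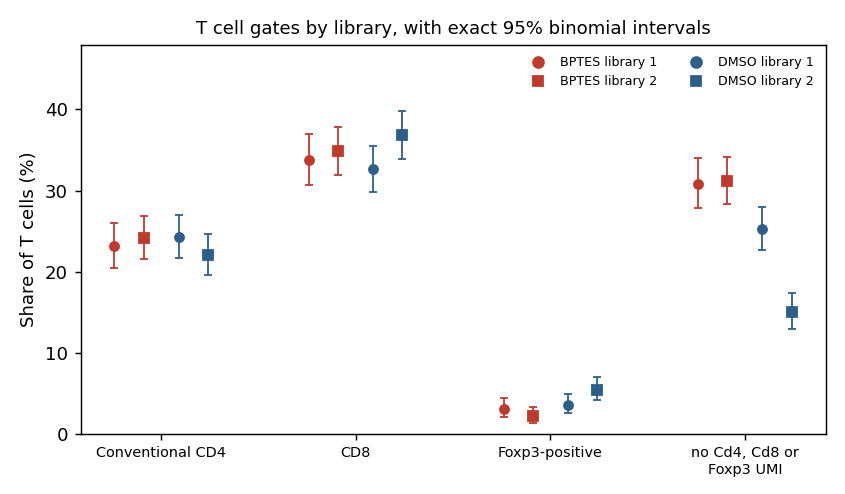
Share of T cells (y axis, percent) in 4 gates (x axis) for each of the 4 libraries, with exact 95% binomial intervals that cover counting error only. The conventional CD4 shares lie between 22.0% and 24.3% in all libraries, while T cells without a Cd4, Cd8 or Foxp3 UMI range from 15% in DMSO library 2 to 31.1% in BPTES library 2.

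Transcripts of tissue memory were frequent in all 4 libraries. Cd44, a memory-associated adhesion receptor, was detected in 80.9% to 88.3% of thinned cells, S100a4 in 68.6% to 82.2%, the chemokine receptor gene Cxcr6 in 65.0% to 71.8% and the retention-associated Rgs1 in 80.9% to 84.0%. In B cells Cxcr6 reached 1.96%, S100a4 13.7% to 21.2% and Rgs1 25% to 34.1%, and Cd44 45.6% to 61.7%. Ccr7 was seen in only 5.65% to 10.8% of CD4 cells. It is also a naive B cell gene, so B cells give no background for it. Lef1, another gene of the naive list, was found in 49.1% to 55.5%, and 56.6% to 79.6% of the cells with Lef1 also had S100a4, against 79.7% to 84.6% of the cells without Lef1.

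Some transcripts were found together more often than apart. Among thinned cells with a Cxcr6 UMI (127 to 155 per library), 82.7% to 87.1% had an S100a4 UMI, against 39.1% to 72% of cells without Cxcr6. Tbx21 was found in 68.2% to 76.1% of cells with Ifng, against 37.4% to 45.7% of the rest. Nkg7 was found in 78.4% to 85.1% of cells with Ccl5, against 25.5% to 37.5% of those without it. Each of these 3 contrasts had the same direction in all 4 libraries. Between memory and type 1 transcripts the contrast was uneven: Cxcr6 was found in 80% and 84.5% of cells with Ifng against 64.1% and 49.5% of the rest with BPTES, and in 72.5% and 66.2% against 62.8% and 64.2% with DMSO.

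Genes of the helper programs differed in how often they were found. Tbx21 was detected in 50.0% to 59.6% of the thinned CD4 cells and Ifng, the interferon gamma gene, in 38.5% to 48%, against at most 9.09% and 0.990% of B cells. Gata3, which most T cells express at some level, was detected in 44.1% to 54.2%. Il17a was seen in 1.96% to 4% and the follicular helper receptor gene Cxcr5 in 2.94% to 5.65%. Cytotoxic-type transcripts were frequent too, with Nkg7 in 53% to 64.4% and Ccl5 in 49.5% to 59.3% of CD4 cells, below the 92.7% to 95.6% and 83.1% to 93.2% of CD8 cells.

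**Figure D2:**
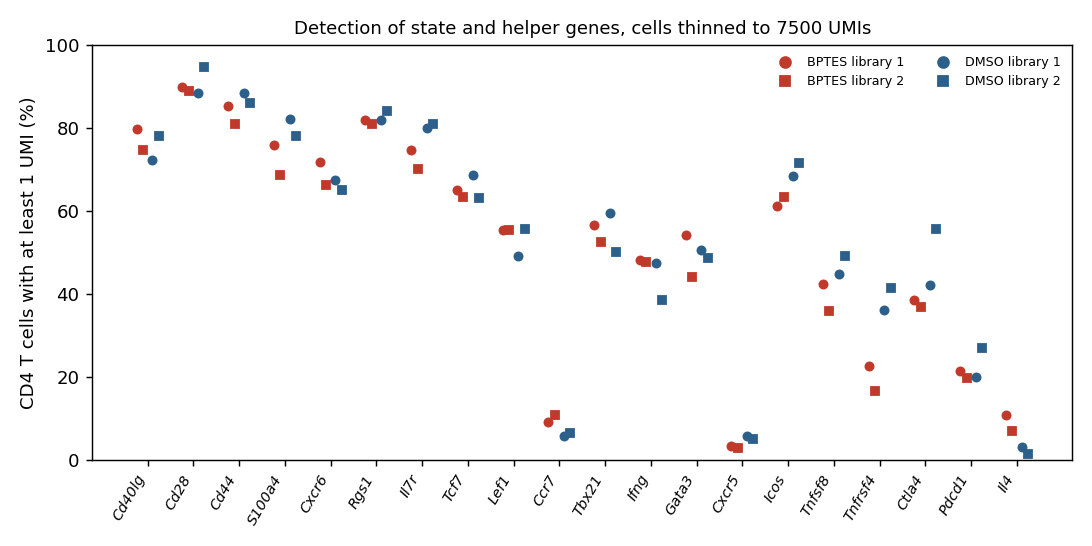
Share of conventional CD4 T cells with at least 1 UMI (y axis, percent) for 20 genes (x axis) after thinning each cell to 7500 UMIs, with 1 point per library. Cd44, S100a4, Cxcr6 and Rgs1 lie at or above 65% in every library while Ccr7 lies at or under 10.8%.

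The treatment comparison used UMIs summed over the gated cells of each library, 2438121 and 2790850 for BPTES and 3172905 and 2905030 for DMSO. Of 10840 genes tested with edgeR's quasi-likelihood test, 26 (0.24%) passed an adjusted p of 0.05, 9 higher (0.083%) and 17 lower (0.157%) with BPTES. At an unadjusted p under 0.05 there were 559 higher (5.16%) and 568 lower (5.24%), and the median log2 fold change over all tested genes was -0.0032. Of the 26, 9 were in the gene lists. The number of calls depended on the libraries: it was 33 without BPTES library 1, 6 without BPTES library 2, 175 without DMSO library 1 and 139 without DMSO library 2.

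Among cytokine genes, Il4 rose with BPTES. Il4 (ENSMUSG00000000869, chr11:53602982-53618669 on the minus strand of GRCm38) encodes interleukin 4, the cytokine of type 2 help. Its UMIs were 97 and 80 with BPTES against 15 and 11 with DMSO, or 39.1 and 29.3 against 4.70 and 3.79 CPM (counts per 1e6 UMIs of the summed cells, scaled by the trimmed mean of M-values). Both BPTES libraries lay well above both DMSO libraries. The log2 fold change was 2.99 ± 0.28 (SE, adjusted p = 0.00399, edgeR's quasi-likelihood test).

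Il4 came from few cells. It was detected in 26 and 20 cells with BPTES and 8 and 6 with DMSO, which is 12.4% and 8.13% against 3.09% and 2.59% of all gated cells. After thinning the shares were 10.7% and 6.86% against 3.04% and 1.5%, with at most 0.490% of thinned B cells. A single cell held 35 of the UMIs in each BPTES library. With the highest cell of every gene left out in each library, 62 and 45 UMIs against 11 and 7 remained and the log2 fold change was 2.80 (adjusted p = 0.00804). Without BPTES library 2 the change was 3.19 (adjusted p = 0.0626), and in the 324 cells with no UMI of other lineages, where 53 and 19 UMIs stood against 5 and 4, it was 2.92 (adjusted p = 0.479). That stricter gate asked for no UMI of C1qa, C1qb, C1qc, Lrp2, Slc34a1, Cd79b, Ms4a1, Csf1r, Kdr or Plvap. It also left out cells above 3 times the library's median UMIs of gated cells. Other transcripts of such lineages remained, and Igkc was still tested there. The cells of the DMSO libraries that carried Il4 were too few to describe their own spread.

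Cells with Il4 often carried transcripts of natural killer T cells, an innate-like lineage that can be CD4-positive. Over the 4 libraries, 37 of 60 cells with Il4 (61.7%) had a Zbtb16 UMI, against 63 of 887 cells without it (7.10%). Klrb1c was found in 33.3% against 2.03%, Klrk1 in 48.3% against 9.24% and Il12rb2 in 71.7% against 24%. Within single libraries these Zbtb16 shares were 53.8% to 87.5% against 3.54% to 9.78%. Il5 and Il13 were each found in 0 of the 60, which allows up to 5% of such cells with a UMI. The median depth was 11864 UMIs in cells with Il4 and 10657 in the others. Barcodes with a Zbtb16 or Klrb1c UMI made up 15.2% and 12.6% of the CD4 cells with BPTES and 10.4% and 6.47% with DMSO, with no overlap. The whole list of natural killer and innate-like T cell genes did not separate the groups. Its summed level was 660 and 508 CPM with BPTES and 861 and 406 with DMSO. The share of thinned cells with that list overlapped narrowly, with BPTES library 2 at 41.2% and DMSO library 1 at 41.3%. With the 105 barcodes that had a Zbtb16 or Klrb1c UMI left out, Il4 stood at 58 and 50 UMIs against 1 and 3. It stayed past the threshold (log2 fold change 5.02, adjusted p = 0.00211).

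Another gene-based restriction changed this picture. With the 416 barcodes that had an Ikzf2 or Il2ra UMI left out, Il4 was at 56 and 6 UMIs with BPTES and 0 and 6 with DMSO, so the libraries overlapped and the gene did not pass the low-count filter. Other type 2 genes were not called. Gata3 stood at 131 and 145 CPM against 128 and 142, a log2 fold change of 0.03 ± 0.11, and Il5 had 0 and 0 against 1 and 2 UMIs. Il13 was found in 0 of 947 cells, which allows up to 0.317% of cells with a UMI and sets no limit on cells that express it. Of the 8 tested genes of the type 2 list, 1 was called higher (0.083% of all genes) and the median log2 fold change was -0.08.

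The receptor genes Il12rb2 and Klrk1 were also higher. Il12rb2 (ENSMUSG00000018341, chr6:67291318-67376188, minus strand), the signalling chain of the interleukin 12 receptor, stood at 95.5 and 108 CPM with BPTES and at 45.5 and 48.9 with DMSO, with a log2 fold change of 1.11 ± 0.13 (adjusted p = 0.0109, edgeR's quasi-likelihood test). Klrk1 (ENSMUSG00000030149, chr6:129610323-129623864, minus strand), which encodes the activating receptor NKG2D, stood at 86.3 and 78.0 against 34.8 and 46.1 CPM, with a log2 fold change of 1.02 ± 0.16 (adjusted p = 0.0425). The groups did not overlap for either gene. Without BPTES library 2 the adjusted p rose to 0.188 for Il12rb2 and 0.337 for Klrk1, and without BPTES library 1 it was 0.183 for Klrk1.

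The gates changed these genes to different degrees. Without the barcodes that had a Zbtb16 or Klrb1c UMI, the change of Klrk1 was -0.24 (adjusted p = 0.81), while that of Il12rb2 was 1.11 (adjusted p = 0.0607). With at least 2 Cd4 UMIs required, Klrk1 was at 0.17 (adjusted p = 0.877) and Il12rb2 at 1.07 (adjusted p = 0.0791). The change of Il12rb2 was 0.92 (adjusted p = 0.859) without the barcodes that had Ikzf2 or Il2ra and 1.21 (adjusted p = 0.133) with no UMI of other lineages, so it passed under none of these 4 restrictions. Other genes of the cytotoxic list, of which 10 were tested and 1 was called higher (0.083% of all genes), included Klrd1 at 29.8 and 37.0 against 22.6 and 23.4 CPM and Klrg1 at 8.06 and 5.13 against 2.51 and 2.07 CPM. Neither passed the threshold. The list's median was 0.10, and Gzmk, a granzyme gene, had 75.4 and 67.0 against 69.6 and 109 CPM.

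Satb1 was the called transcription regulator that was higher with BPTES. Satb1 (ENSMUSG00000023927, chr17:51736187-51833290, minus strand) encodes a chromatin organiser of T cell development and naive T cells. It stood at 235 and 280 CPM with BPTES and 119 and 142 with DMSO, with no overlap and a log2 fold change of 0.98 ± 0.13 (adjusted p = 0.0203, edgeR's quasi-likelihood test). Without BPTES library 2 it was 0.85 (adjusted p = 0.264). Leaving out the barcodes with Zbtb16 or Klrb1c gave 0.87 (adjusted p = 0.431), with a like size and no call. Satb1 was at 1.53 (adjusted p = 0.601) with no UMI of other lineages and at 1.03 (adjusted p = 0.859) without Ikzf2 or Il2ra. With at least 2 Cd4 UMIs it was at 0.94 and did not pass.

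Nr4a2 and Relb fell. Nr4a2 (ENSMUSG00000026826, chr2:57106830-57124003, minus strand) is a nuclear receptor gene induced by T cell receptor signals, and stood at 102 and 89.8 CPM against 174 and 164 (log2 fold change -0.82 ± 0.11, adjusted p = 0.0243). Relb (ENSMUSG00000002983, chr7:19606217-19629438, minus strand), a subunit of the noncanonical NF-kB pathway, stood at 72.2 and 78.4 against 129 and 138 CPM (-0.82 ± 0.11, adjusted p = 0.0243, edgeR's quasi-likelihood test for both). All BPTES values were below all DMSO values. At most 30 of a library's Relb UMIs were in 1 barcode, and that barcode was in a BPTES library, the group with the lower level. Without BPTES library 2 the adjusted p was 0.285 for Nr4a2 and 0.208 for Relb, and without BPTES library 1 it was 0.0649 and 0.136. Nr4a2 was at -0.44 both in the cells with no UMI of other lineages (adjusted p = 0.821) and without the barcodes that had Ikzf2 or Il2ra (adjusted p = 0.859). Relb was at -1.18 (adjusted p = 0.0663) and -0.90 (adjusted p = 0.144) under the same restrictions. With at least 2 Cd4 UMIs Relb was at -0.83 and did not pass either.

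Socs3 and Ifi27l2a were lower too. Socs3 (ENSMUSG00000053113, chr11:117966079-117970047, minus strand), an inhibitor of cytokine receptor signalling, stood at 34.7 and 37.0 CPM against 75.6 and 72.3, with a log2 fold change of -1.04 ± 0.13 (adjusted p = 0.0189). Ifi27l2a (ENSMUSG00000079017, chr12:103442167-103443680, minus strand), an interferon-inducible gene, stood at 221 and 209 against 349 and 413 CPM, with -0.83 ± 0.11 (adjusted p = 0.0193, edgeR's quasi-likelihood test for both). Neither group overlapped the other. Without BPTES library 1 or 2 the adjusted p was 0.105 and 0.197 for Socs3 and 0.113 and 0.329 for Ifi27l2a, at changes between -1.09 and -0.78. Ifi27l2a was the only one of 22 tested genes of the interferon list to be called (0.157% of all genes were called lower), and the list's median was -0.15 with 8 genes above 0.

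Ddx43 and Kcnq5 were the remaining higher genes outside the immunoglobulins with a mean of at least 4 on the log2 CPM scale. Ddx43, an RNA helicase gene, stood at 29.8 and 32.2 CPM against 6.90 and 10.3 (log2 fold change 1.85 ± 0.26, adjusted p = 0.0243). Kcnq5, a potassium channel gene, stood at 545 and 430 against 276 and 253 CPM (0.88 ± 0.12, adjusted p = 0.0294, edgeR's quasi-likelihood test for both). Without the barcodes with Zbtb16 or Klrb1c, Kcnq5 was at 0.22 (adjusted p = 0.471) and Ddx43 at 2.40 (adjusted p = 0.00997). With no UMI of other lineages Ddx43 was at 1.88 (adjusted p = 0.275) and Kcnq5 at 1.01 (adjusted p = 0.0724). Without Ikzf2 or Il2ra, Ddx43 was at 2.07 (adjusted p = 0.0528) and Kcnq5 at 0.41 (adjusted p = 0.801). Neither gene passed under these 2 restrictions. Leaving out BPTES library 1 or 2 ended both calls, at changes of 1.91 and 1.80 for Ddx43 and 0.70 and 1.05 for Kcnq5. Without 8 barcodes that held tubule transcripts, Kcnq5 was at 0.88 (adjusted p = 0.099), and with at least 2 Cd4 UMIs it was at 0.46 (adjusted p = 0.58). Gm14085 was called as well, from 19 and 37 UMIs against 2 and 2.

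**Figure D3:**
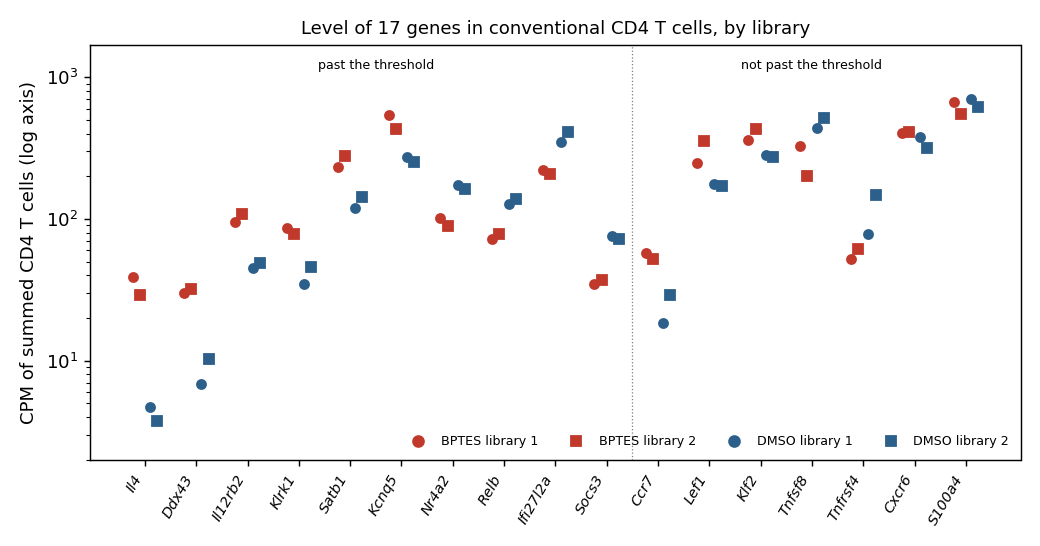
Level of 17 genes (x axis) in the summed conventional CD4 T cells of each library, in CPM on a log axis (y axis), with called genes left of the dotted line and other genes right of it. For each of the 10 called genes both BPTES libraries lie on 1 side of both DMSO libraries, as in Il4 with 39.1 and 29.3 against 4.70 and 3.79 CPM.

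Igkc and Jchain, genes of antibody light chain and joining chain that T cells do not express, rose as well. Igkc stood at 505 and 549 CPM against 93.8 and 95.7 (log2 fold change 2.48 ± 0.10, adjusted p = 9.95e-06) and Jchain at 35.1 and 55.3 against 7.21 and 4.82 (2.90 ± 0.31, adjusted p = 0.0109, edgeR's quasi-likelihood test for both). Igkc was found in 93.8% and 96.1% of thinned CD4 cells with BPTES, against 47.8% and 45.0% with DMSO. The CD8 gate had like shares, 91.4% and 93.4% against 49.3% and 48.2%. Over all leukocyte barcodes, the level of Igkc was 38961 and 55962 against 5152 and 7079 CPM before scaling, so its level outside the CD4 cells moved the same way. Of the B cell list, Ms4a1, Cd79b, Pax5 and Ighd had at most 5 UMIs in any library. The summed level of the list, without the gate gene Cd79a, was 1315 and 898 CPM with BPTES and 1214 and 1660 with DMSO. Most of it came from Cd74, which other antigen-presenting cells also express, with 2606 and 2095 against 3354 and 4255 UMIs, and from Ighm, with 553 and 376 against 357 and 526. Their part in the rise of Igkc was not tested. All 8 tested plasma cell genes had positive changes, 2 were called higher (0.083% of all genes) and the median was 2.70. Jchain was not called without BPTES library 2 (2.53, adjusted p = 0.152).

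Several of the other falls rested on few barcodes. Fst, the follistatin gene, had 1 and 0 UMIs with BPTES and 177 and 142 with DMSO, of which 176 and 142 were in 1 barcode of each DMSO library. Cryab, a small heat shock protein gene, had 2 and 3 against 99 and 133 UMIs, with 95 and 129 in 1 barcode each. Pkhd1, the gene of the ciliary protein fibrocystin, had 7 and 9 against 117 and 115, with 92 and 60 in 1 barcode each. Ackr3, Apela, Rgs6, Sox6, P3h2, Esrrg, Ank3 and Myof had the same direction, and in none of these genes did the groups overlap. Myof was less concentrated, with 6 and 8 against 47 and 54 UMIs, of which 8 and 16 were in 1 barcode of each DMSO library. With the highest cell of each gene left out, Myof (-2.69, adjusted p = 0.0221), Ank3 (-2.17, adjusted p = 0.0369) and Tshz2, a zinc finger gene (-1.86, adjusted p = 0.00713) still passed the threshold.

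Barcodes with at least 5 UMIs over the tubule genes Epcam, Cdh16 and Slc12a1 numbered 0 and 1 with BPTES and 5 and 2 with DMSO, and reached up to 58942 UMIs. Without them 11 genes passed the threshold, all among the 26: Il4, Jchain, Igkc, Ddx43, Il12rb2, Klrk1 and Satb1 higher, and Socs3, Nr4a2, Ifi27l2a and Relb lower. Fxyd2, a subunit of the tubule sodium pump, went from a change of -0.998 (adjusted p = 0.0193) to -0.27 (adjusted p = 0.627), Pkhd1 from -3.62 to -0.87 and Ank3 from -2.45 to -0.08. Tshz2 kept -1.35 from -1.86 without passing (adjusted p = 0.099), and had 43 and 35 against 170 and 163 UMIs with all barcodes. With the highest cell of each gene left out, 37 genes passed, of which 16 were among the 26.

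**Figure D4:**
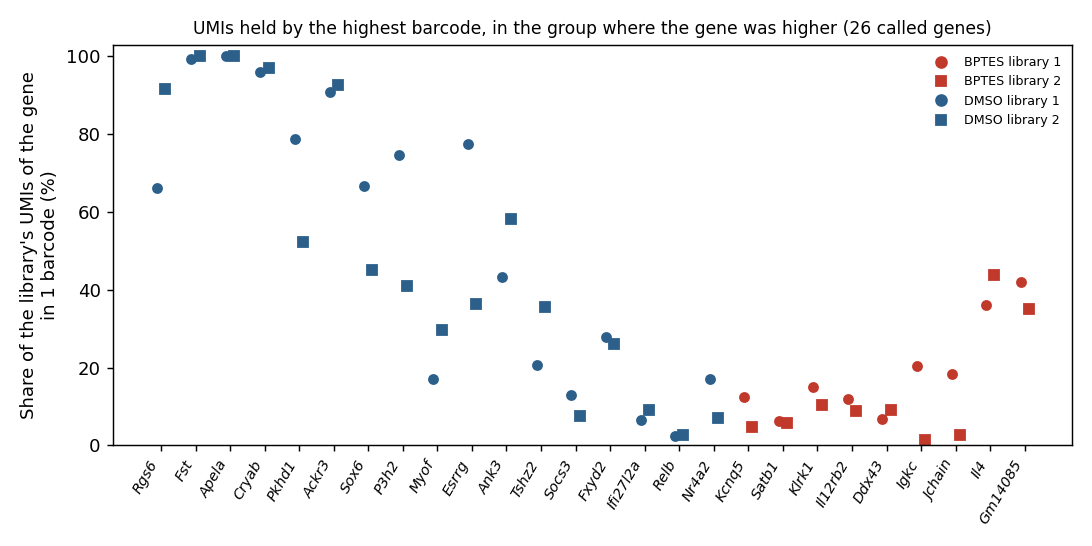
Share of a library's UMIs held by its single highest barcode (y axis, percent) for the 26 called genes (x axis, from the most negative to the most positive log2 fold change), shown for the libraries of the group in which the gene was higher. Ackr3 lies near the top, with 30 of 33 and 37 of 40 UMIs in 1 barcode of each DMSO library, and Relb near 0, with 10 of 410 and 11 of 400.

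Genes of naive and recirculating T cells were mostly higher with BPTES, 1 of them past the threshold. Of the 15 tested, 12 had positive changes, 9 had an unadjusted p under 0.05 in the higher direction (5.16% of all genes) and 1 in the lower, Satb1 alone was called and the median was 0.66. Ccr7, the receptor for lymph node chemokines, stood at 57.2 and 52.0 CPM against 18.5 and 29.3. Both BPTES libraries were above both DMSO libraries, and the change was 1.20 ± 0.22 (adjusted p = 0.0743, edgeR's quasi-likelihood test). Lef1, a transcription factor of naive cells, was at 0.79 ± 0.17 (adjusted p = 0.182) and Klf2, which promotes tissue exit, at 0.51 ± 0.11 (adjusted p = 0.118). Lef1 was at 0.51 (adjusted p = 0.496) without BPTES library 2, and passed without BPTES library 1 (1.03, adjusted p = 0.0298) and with DESeq2 (0.80, adjusted p = 0.0161). With 1 library left out, the change of Ccr7 ran from 0.90 to 1.56. Ccr7 passed with at least 2 Cd4 UMIs (1.34, adjusted p = 0.0185). It did not pass without the barcodes with tubule transcripts (1.15, adjusted p = 0.115) or with the highest cell left out (1.16, adjusted p = 0.112). Nor did it pass without Zbtb16 or Klrb1c (1.01, adjusted p = 0.0856) or without Ikzf2 or Il2ra (1.37, adjusted p = 0.512). With no UMI of other lineages it was at 1.54 (adjusted p = 0.397).

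Other genes of that kind lay closer together. Tcf7, the partner of Lef1, stood at 215 and 242 CPM against 231 and 269, the exit receptor gene S1pr1 at 76.6 and 84.6 against 81.5 and 71.9, and the interleukin 7 receptor gene Il7r at 592 and 611 against 572 and 637. The groups overlapped in S1pr1, in Tcf7 and in Il7r. The share of thinned cells with Ccr7 was 9.04% and 10.8% against 5.65% and 6.5%. On the side of memory and residency, Cd44 stood at 403 and 383 against 378 and 304 CPM, Cxcr6 at 403 and 411 against 376 and 315, S100a4 at 670 and 555 against 702 and 619 and Cd69 at 370 and 363 against 437 and 433. The 14 tested genes of the effector-memory list had a median of 0.01 and no call. Of the 12 tested genes of the tissue residency list, Nr4a2 was called, 2 were higher and 3 lower at an unadjusted p under 0.05 (5.16% and 5.24% of all genes), and the median was 0.14. Its most negative gene was Itgae, the CD103 integrin chain, at 5.24 and 7.33 against 13.2 and 29.3 CPM, a change of -1.73 ± 0.44 (adjusted p = 0.222, edgeR's quasi-likelihood test), and its most positive was Itga1, another integrin chain, at 305 and 230 against 199 and 112 CPM, a change of 0.77 ± 0.37 (adjusted p = 0.593). The groups did not overlap in either.

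Costimulatory genes of the TNF superfamily were mostly lower with BPTES, none past the threshold. No gene was called of 11 tested, the median was -0.44, and in 8 of them both BPTES libraries lay below both DMSO libraries (21.4% of all genes). Tnfrsf4, the OX40 receptor, stood at 52.0 and 61.9 CPM against 78.4 and 148, a change of -0.99 ± 0.38 (adjusted p = 0.514). Tnfsf8, the CD30 ligand, stood at 327 and 203 against 438 and 514, a change of -0.85 ± 0.26 (adjusted p = 0.43, edgeR's quasi-likelihood test for both). The share of thinned cells with Tnfrsf4 was 22.6% and 16.7% against 36.1% and 41.5%. Tnfrsf4 is also high in regulatory T cells, where 61.1% to 93.5% of Foxp3-positive cells had it, and the barcodes with an Ikzf2 or Il2ra UMI made up 41.4% and 40.2% of the CD4 gate with BPTES and 39.4% and 55.2% with DMSO. Without them the change of Tnfrsf4 was -1.07 (adjusted p = 0.208). Single libraries moved both genes: Tnfrsf4 was at -0.46 (adjusted p = 0.379) without DMSO library 2 and past the threshold at -1.38 (adjusted p = 2.13e-05) without DMSO library 1. Tnfsf8 was at -0.54 (adjusted p = 0.543) without BPTES library 2, and passed at -1.23 (adjusted p = 0.0326) without BPTES library 1 and with DESeq2 (-0.84, adjusted p = 0.0137).

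Inhibitory receptor genes gave no call. Pdcd1, the PD-1 gene, stood at 67.7 and 44.3 CPM against 50.5 and 91.2, Ctla4 at 275 and 430 against 352 and 537 and Lag3 at 12.1 and 6.96 against 11.9 and 21.7. The values of the groups overlapped in all 3 genes. Icos, a costimulator of follicular and other helper cells, was at 329 and 322 against 294 and 355. The 10 inhibitory receptor genes had a median of -0.29, and the groups did not overlap in 1 gene that was higher (21.6% of all genes) and 3 that were lower (21.4%), among them Btla at 99.6 and 86.8 against 113 and 127 CPM (adjusted p = 0.335, edgeR's quasi-likelihood test). The share of thinned cells with at least 2 UMIs over that list was 69.5% and 70.1% against 75.2% and 82.0%, with no overlap (exact permutation p = 0.33, the smallest possible). The regulatory T cell list moved with it, at 67.8% and 64.2% against 75.2% and 77.5% of thinned cells. Both lists were lower with BPTES in thinned B cells too, again with no overlap. There the inhibitory list was at 65.5% and 63.9% against 75.8% and 76.0%. The regulatory list was at 39.9% and 34.2% against 52.7% and 55.4%. These shifts were therefore not particular to the CD4 gate. Without the barcodes that had Ikzf2 or Il2ra, the 8 inhibitory receptor genes still tested had a median of -0.07 and Pdcd1 was at 0.21. Without those that had Zbtb16 or Klrb1c, the 10 genes had a median of -0.10. Under that restriction 1 of the 10 was called, and 57 of all 10278 tested genes were.

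Other helper programs gave no call beyond Il12rb2 and Il4. Tbx21 stood at 202 and 184 CPM against 221 and 197 and Ifng at 223 and 235 against 177 and 162, a change of 0.43 ± 0.10 (adjusted p = 0.151). Il17a was uneven, at 74.2 and 13.2 CPM against 85.0 and 50.9, with 88 of 184 UMIs in 1 cell of BPTES library 1. Cxcr5 stood at 8.47 and 4.40 against 10.0 and 9.98, Bcl6 at 60.1 and 67.4 against 65.2 and 65.1 and Il21 at 11.3 and 6.96 against 11 and 19.6. The type 17 list (9 tested) had a median of -0.29 and the follicular helper list (9 tested) of -0.35, with 8 negative genes in each. Without Ikzf2 or Il2ra the medians were -0.81 (8 tested) and -0.31 (4 tested). Without Zbtb16 or Klrb1c they were -0.55 (10 tested) and -0.14 (8 tested).

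The glutamine genes, of the pathway that BPTES acts on, gave no call. Glul, which makes glutamine, was at 33.9 and 44.3 against 41.4 and 37.5 CPM, the glutamine carrier Slc1a5 at 77.0 and 92.3 against 91.0 and 97.8 and the carrier Slc38a2 at 298 and 272 against 277 and 278. Of 22 tested genes of the list 17 were negative and the median was -0.14. The 14 tested genes of the amino acid stress response driven by ATF4 had a median of -0.12 and no call, and the 14 of glycolysis -0.13 and no call.

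The 11 heat shock genes were all positive without a call. Their median was 0.68, from 0.40 to 1.11, and 6 had an unadjusted p under 0.05 (5.16% of all genes in that direction). Hspa1a, an inducible chaperone, stood at 420 and 668 CPM against 225 and 310, and Hsph1 at 234 and 517 against 174 and 176. BPTES library 2 was the highest in both, and BPTES library 1 lay between it and the DMSO libraries. The 13 respiratory chain genes of the mitochondrial genome were all negative, with a median of -0.33 and no call. Their summed level was 25873 and 26963 CPM against 36829 and 28004, so DMSO library 1 stood apart and BPTES library 2 was near DMSO library 2. The median mitochondrial share of UMIs per CD4 cell was 1.90% and 1.81% with BPTES and 1.86% and 1.77% with DMSO. The fall in the sums was therefore not seen in the medians of the cells. Heat shock and mitochondrial transcripts also respond to tissue digestion, and its part in these values was not tested.

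**Figure D5:**
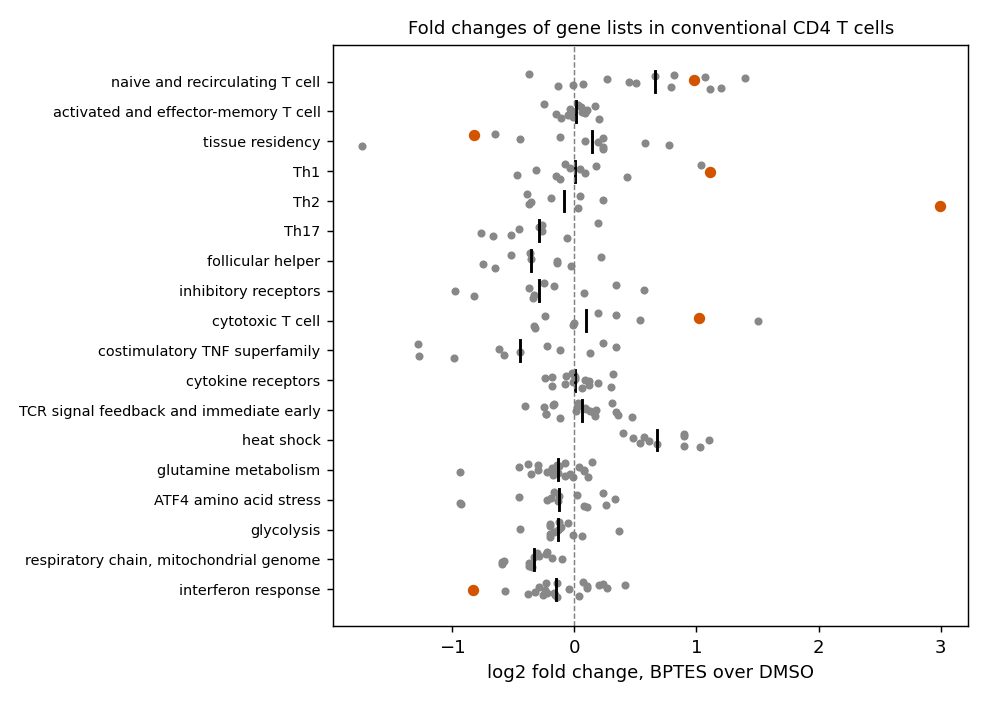
Log2 fold changes, BPTES over DMSO (x axis), of the tested genes of 18 lists (y axis) in conventional CD4 T cells, with called genes in orange, each list's median as a black bar and the median of all tested genes as a dashed line. The naive and heat shock lists lie mostly right of the line, with medians of 0.66 and 0.68, and the TNF superfamily lies mostly left of it, with a median of -0.44.

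The response of CD4 cells was set against that of CD8 cells of the same libraries with an interaction of cell class and treatment, which shares libraries and not cells. Of 11990 genes 2 (0.0167%) differed at an adjusted p of 0.05, Aqp1 and Fst, both genes of non-lymphoid cells, and 614 (5.12%) at an unadjusted one. Klrk1 had a change of -0.44 in CD8 cells, and the difference was 1.47 ± 0.17 (adjusted p = 0.0682, edgeR's quasi-likelihood test). With the barcodes with tubule transcripts left out of the CD4 cells, Klrk1 was the only gene past the threshold (difference 1.47, adjusted p = 0.0249). Such barcodes were not left out of the CD8 cells, so the gates were unlike in that comparison. The count of genes was 0 without BPTES library 1, 0 without BPTES library 2, 7 without DMSO library 1 and 26 without DMSO library 2.

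Several changes had the same sign in both classes. Satb1 had 0.80 in CD8 cells, Lef1 0.89, Ccr7 1.61 and Klf2 0.55, and for none of these did the difference pass the threshold (all adjusted p at or above 0.977). Il12rb2 had -0.08 in CD8 cells and a difference of 1.24 ± 0.28 (adjusted p = 0.742). Ifi27l2a had -0.07 in CD8 cells, with a difference of -0.64 that did not pass (adjusted p = 0.969). In CD8 cells alone, 1 of 11689 genes was called (0.00856%), and in Foxp3-positive cells alone 1 of 6329 (0.0158%). Against Foxp3-positive cells, of which there were 22 to 57 per library, 0 of 10728 genes differed (0.0% called with edgeR, 393 or 3.66% at an unadjusted p under 0.05), and the count was 215, 59, 35 and 28 when BPTES 1, BPTES 2, DMSO 1 or DMSO 2 was left out.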

How the data were processed

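The deposited files hold raw UMI counts per gene and barcode, made by the authors with Cell Ranger 8.0.1 on mm10, per the submitters' processing notes; the annotation is not given in the sources used here. Barcodes were kept with at least 500 UMIs, 300 genes and at most 50% mitochondrial UMIs. Libraries held 249881074 to 297947661 UMIs. Raw counts of the gated cells were summed per library and tested with edgeR 4.0.16 (quasi-likelihood, robust, TMM scaling, filterByExpr, Benjamini-Hochberg over all tested genes), tested on simulated data beforehand. The 15 genes of the gate and the feature tdTomato were not tested. Shares were compared by exact permutation over libraries. Intervals cover counting error only. Gene positions are from GENCODE M21 on GRCm38, the assembly that mm10 names, matched by identifier for 18639 of 18673 features. Named genes are called genes of the T cell lists, up to 15 called genes each way whose mean log2 CPM reached 4, and a fixed set of listed genes, some of which are not reported here; others were named after their values were seen. The gate, members and lists were chosen with earlier results of these data known. Alternatives were DESeq2 1.42.0, RLE scaling, no low-count filter, a replicate block, each library left out, stricter gates and no immunoglobulin genes. Leaving out barcodes by tubule, regulatory or natural killer T cell transcripts, or each gene's highest cell, was added after seeing the data. Aldoa and Scart2 had no unique match. Where a library is left out, the lone library of its group is assumed to vary like the other group.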

Additional observations from a re-analysis of the deposited data

Results flagged for a closer look

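The treatment effect differed between conventional CD4 and CD8 T cells for 2 genes. For Aqp1, a water channel gene of tubule and vessel cells, the difference in log2 fold change was -4.86 (adjusted p = 0.0212, edgeR's quasi-likelihood test of the interaction). Its UMIs in CD4 cells were 39 and 3 with BPTES and 46 and 77 with DMSO, of which 33, 1, 37 and 74 were in 1 barcode of the library. Its change was -1.30 in CD4 cells (adjusted p = 0.77) and 3.66 in CD8 cells (adjusted p = 0.717), where BPTES library 1 stood at 48.8 CPM and the other libraries between 1.54 and 2.32. The adjusted p of the difference was 0.435 without BPTES library 1 and 0.328 without BPTES library 2. Without the 8 CD4 barcodes with tubule transcripts, and with the CD8 barcodes unchanged, the difference was -1.52 (adjusted p = 0.899). For Fst the fitted difference was -13.22 (adjusted p = 0.0275), a number that depends on the prior count because the BPTES libraries held 1 and 0 UMIs in CD4 cells. In CD8 cells it stood at 21.1 and 0 CPM with BPTES and 0.439 and 0 with DMSO. In CD4 cells all but 1 of its DMSO UMIs were those of 1 barcode in each library.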

How the results depend on the processing

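The 26 calls in conventional CD4 T cells became 40 with DESeq2 (18 shared with the 26), 611 without a low-count filter, 131 with a replicate block, 6 with no UMI of other lineages (324 cells), 11 without tubule-marker barcodes, 6 without Ikzf2 or Il2ra and 57 without Zbtb16 or Klrb1c, and 6 to 175 with 1 library left out. The cause of these changes in number was not tested. Among list genes, 9 calls became 16 with DESeq2, 96 with no filter, 33 with a replicate block, 4 with no UMI of other lineages, 4 without Ikzf2 or Il2ra and 3 to 33 with 1 library left out. Differences from CD8 cells were 2, then 1 without tubule-marker barcodes and 0 to 26 with 1 library left out. Differences from Foxp3-positive cells were 0, then 1 and 28 to 215. In both kinds of difference, tubule-marker barcodes were left out of the CD4 cells only. The replicate numbers of the labels were not taken as pairs. Same-numbered libraries deviated together with r = 0.216 over 10840 genes, and only 2 pairs exist. With the block, 131 of 10840 genes were called. They included 5 of 15 tested genes of the naive list in place of 1 and 4 of 12 of the residency list in place of 1. Of 11 heat shock genes 4 were called and of 11 TNF superfamily genes 3, in place of none. Plasma cell genes had 4 calls of 8 in place of 2. The type 1, chemokine receptor, dendritic cell and other tubule lists had 2 calls each. With 1 library left out, the BPTES minus DMSO difference ran from -0.65 to 1.59 percentage points for CD4 among T cells, from -0.63 to 0.42 for CD4 among Ptprc-positive barcodes and from -0.056 to 0.091 for the CD4 to CD8 ratio, so all 3 crossed 0, and from -0.13 to -0.035 for the Foxp3-positive ratio.

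Called genes reversed in 2 cases: Klrk1 at -0.24 without Zbtb16 or Klrb1c, and Tshz2 at 0.41 with no UMI of other lineages. Uncalled genes crossed 0. With no UMI of other lineages Tcf7 was at 0.011, S1pr1 -0.046, Ctla4 0.12, Gata3 -0.30, Bcl6 0.34, Slc38a2 -0.0063 and Nr4a1 0.087. Without Ikzf2 or Il2ra, Il7r was at 0.053, Icos -0.11, Pdcd1 0.21 and Gata3 -0.11. Il7r was at 0.046 without Zbtb16 or Klrb1c and Icos at -0.019 without tubule-marker barcodes. With the highest cell left out Icos was at -0.014, Gata3 -0.031 and Glul 0.0062. With at least 3 Cd3 UMIs Icos was at -0.0068, Bcl6 0.027 and Glul 0.017, and Glul was at 0.076 with at least 2 Cd4 UMIs and 0.0041 under the 25% mitochondrial limit. With 1 library left out, the ranges were -0.11 to 0.051 for Bcl6, -0.69 to 0.0087 for Ctla4 and -0.043 to 0.11 for Gata3. They were -0.22 to 0.17 for Glul, -0.13 to 0.15 for Icos, -2.36 to 0.12 for Il17a and -0.085 to 0.076 for Il7r. For Pdcd1 the range was -0.71 to 0.15, for S100a4 -0.25 to 0.025, for S1pr1 -0.012 to 0.16 and for Slc38a2 -0.027 to 0.11.

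Precision is limited by 2 libraries a group and by 210 to 259 cells each. Of 19 named called genes, 10 stayed past the threshold without BPTES library 1 and 3 without BPTES library 2, and all 19 did without either DMSO library. DESeq2 kept 16, losing Klrk1, Socs3 and Relb, and the gates that left out barcodes kept 8 of 17 with at least 2 Cd4 UMIs, 1 of 14 with no UMI of other lineages, 3 of 14 without Ikzf2 or Il2ra and 8 of 17 without Zbtb16 or Klrb1c.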

Other observations

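Values of 4 genes are given beside Relb, chosen after their values were seen and with no test of them as a group. Nfkb2, the partner of Relb, stood at 30.6 and 32.6 CPM with BPTES and 47.7 and 62.0 with DMSO (log2 fold change -0.79, adjusted p = 0.136, edgeR's quasi-likelihood test). Lta, the lymphotoxin alpha gene, was at 15.7 and 11.7 against 34.5 and 32.0 CPM (-1.28, adjusted p = 0.065), and Tank, an adaptor of this pathway, at 208 and 217 against 292 and 331 (-0.55, adjusted p = 0.0743). Nfkbia, its inhibitor, was at 302 and 284 against 371 and 404 (-0.40, adjusted p = 0.153). None of these passed the threshold. With the highest cell of each gene left out, Nfkb2 (-0.99, adjusted p = 0.0456) and Tank (-0.55, adjusted p = 0.0358) passed. Without the barcodes that had Zbtb16 or Klrb1c, Tank, Lta and Nfkbia passed (adjusted p = 0.0385, 0.0459 and 0.0332). None of the 4 passed without the barcodes with tubule transcripts (adjusted p between 0.0854 and 0.19). Without the barcodes that had Ikzf2 or Il2ra none of the 4 passed, with adjusted p between 0.24 and 0.85. Nfkb2 was then at -1.02, Lta at -0.61, Tank at -0.62 and Nfkbia at -0.26. With no UMI of other lineages none passed either, with adjusted p between 0.22 and 0.492. There Nfkb2 was at -1.07, Lta at -1.09, Tank at -0.65 and Nfkbia at -0.37.

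Gamma delta T cell genes were uneven within the gate. Trdc, the delta chain constant gene, had 42 and 37 UMIs with BPTES and 1 and 22 with DMSO, in 15 cells over all libraries, with 32 and 28 of the BPTES UMIs in 1 cell each. Cd163l1, another gene of that lineage, had 34 and 18 against 4 and 2 UMIs, with 32 and 16 in 1 cell each. DMSO library 1 held 1239 UMIs of S100a8, a neutrophil gene, with 726 in 1 barcode, and the other libraries held 10, 7 and 13. The variable segment Trav14-3 had 0 and 4 UMIs with BPTES and 63 and 33 with DMSO (adjusted p = 0.0929).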
